A study of Mus musculus with 6 samples.

Results

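Forkhead (Fox) genes encode transcription factors that share a winged-helix DNA-binding domain. The members described here are the rows of the deposited gene count table whose symbol is Fox followed by 1 lower-case letter and a number, which gave 29 of the 22287 genes listed. C57BL/6 mouse pups gave the RNA at postnatal day 7.5, and the tissue was the growing root end (apical region) of lower first molars. Both groups carried loxP-flanked Arid1a alleles (Arid1a fl/fl) and received tamoxifen at postnatal day 3.5. The 3 mutant libraries also carried Gli1-CreER (Gli1-CreER;Arid1a fl/fl), a recombinase made in cells that express the Hedgehog target Gli1, and the 3 control libraries did not, so that Arid1a loss and the presence of CreER cannot be told apart. The Arid1a protein belongs to the BAF complex, which remodels chromatin. The labels do not say whether the CreER allele disrupts Gli1 itself, or whether a library is 1 animal or a pool, so the p-values rest on the spread among these libraries, part of which may be technical.

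Several Fox genes are known for roles that touch the subject of the series, which its title gives as Arid1a, Hedgehog signalling and the arrest of the cell cycle in root progenitors. Foxf1, Foxf2 and Foxl1 are transcribed in mesenchyme that receives Hedgehog signals, and Foxd1 and Foxd2 depend on Hedgehog signals in facial mesenchyme. Foxm1 works with the MuvB complex to switch on genes of G2 and mitosis. Foxo proteins act in the nucleus until AKT, downstream of insulin and growth factor receptors, phosphorylates them and sends them to the cytoplasm.

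Libraries held 20453247 to 24255352 estimated counts. Arid1a stood at 210, 202 and 204 CPM (counts per 1e+06 of scaled library size) in control replicates 2, 3 and 5 and at 120, 134 and 130 CPM in mutant replicates 3, 4 and 5. Its log2 fold change was -0.68 with an SE of 0.07 (edgeR quasi-likelihood test, adjusted p = 0.0129), which is the check of the genotype labels. All 16 genes of a dental papilla and odontoblast list were listed, and Dspp, the dentin matrix gene, lay between 6910 and 9980 CPM in the 6 libraries. The enamel matrix gene Amelx, a product of the dental epithelium, stood at 109000 to 209000 CPM in controls and 37100 to 62100 CPM in mutants, so the tissue held epithelium as well as mesenchyme. In bulk tissue, fewer cells of a type and less RNA per cell cannot be told apart.

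Of the 29 Fox genes, 25 had enough counts to be tested. Foxm1 alone was called at an adjusted p under 0.05, and it was higher in the mutants, so that 1 of 25 was called higher where 0.659% of all 17305 tested genes were. No member was called lower, where 1.20% of all genes were. At an unadjusted p under 0.05, 4 members were higher and 1 was lower, or 20.0% of members beside 15.0% of all genes. DESeq2 called 2 members higher and 0 lower, and limma-voom called 0 in either direction. Among the 25 tested, the control and mutant libraries did not overlap for 7. Of these, 5 were higher in all mutants (20.0% of members, 10.6% of all genes), namely Foxm1, Foxf1, Foxf2, Foxn2 and Foxc1, and 2 were lower in all mutants (8.0% of members, 10.8% of all genes), namely Foxi3 and Foxk2. The untested Foxd1 (mutants higher) and Foxn1 (mutants lower) did not overlap either, with at most 13 counts in a library. Log2 fold changes (mutant minus control) were positive for 16 members, or 64.0%, as they were for 52.0% of all genes, and the median was 0.07 over members and 0.01 over all genes.

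**Figure D1:**
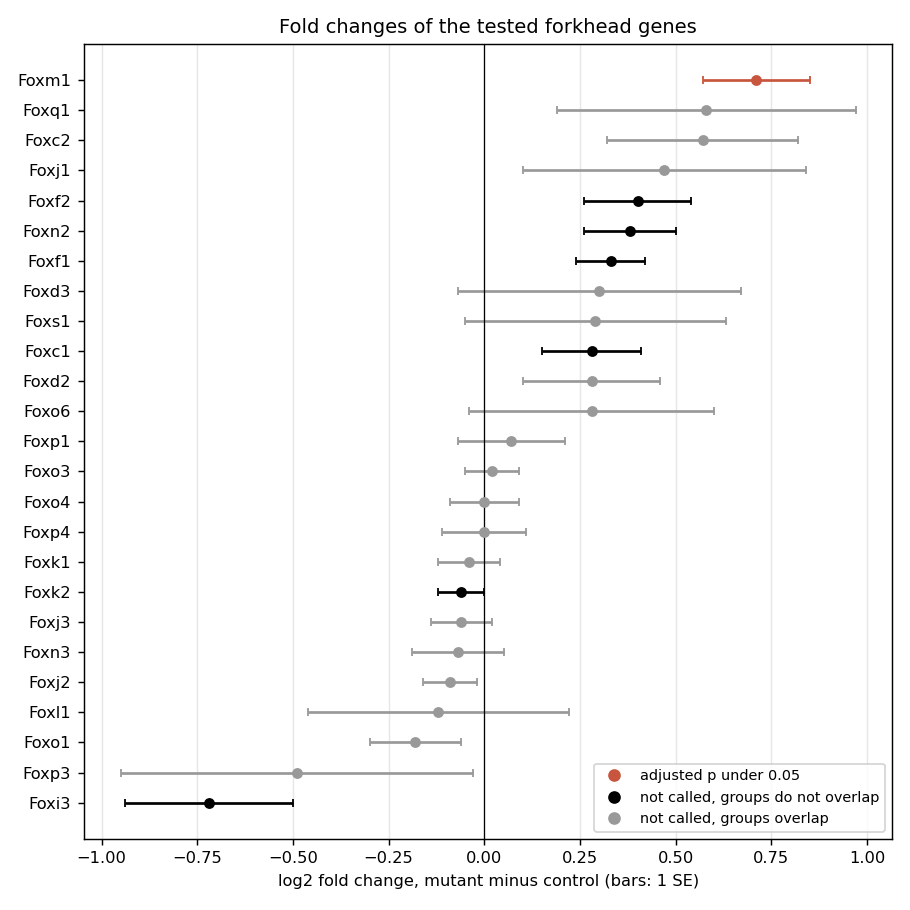
Log2 fold change of each of the 25 tested Fox genes, mutant minus control, on the horizontal axis, with bars of 1 SE. Foxm1 (0.71) was the called gene, in red, and the genes in black are those whose libraries did not overlap between groups without passing the test, of which Foxi3 (-0.72) was the lowest.

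Levels of different genes were compared as CPM per 1000 bases of annotated exon, averaged over the 3 controls. Foxf1, which is needed for mesenchyme around the gut and lung, was the most abundant at 30.8 ± 2.97 CPM per 1000 bases (SD, n = 3). Foxo1, a mediator of insulin signalling, followed at 24.4 ± 2.56, then Foxo3, its paralog, at 17.4 ± 0.558 and Foxf2, the paralog of Foxf1, at 14.7 ± 1.92. The control libraries of each of these genes lay apart from those of the next in the order. Together they made up 47.8% to 51.3% of the summed level of all 29 members in each of the 6 libraries. The next were Foxk2 (12.1 ± 0.213), Foxo4 (10.7 ± 0.482), Foxn3 (10.3 ± 1.36), Foxk1 (9.67 ± 0.502), Foxj2 (8.64 ± 0.245) and Foxp4 (7.24 ± 0.564), and from Foxo4 to Foxk1 the control libraries overlapped. Foxm1 ranked 15 in controls at 3.12 ± 0.385 CPM per 1000 bases and stood at 5.12 ± 0.804 in mutants. The lengths used were 2415 bases for Foxf1, 8665 for Foxo1 and 11501 for Foxn3. They join the exons of every annotated transcript, so genes with many transcripts are placed too low.

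**Figure D2:**
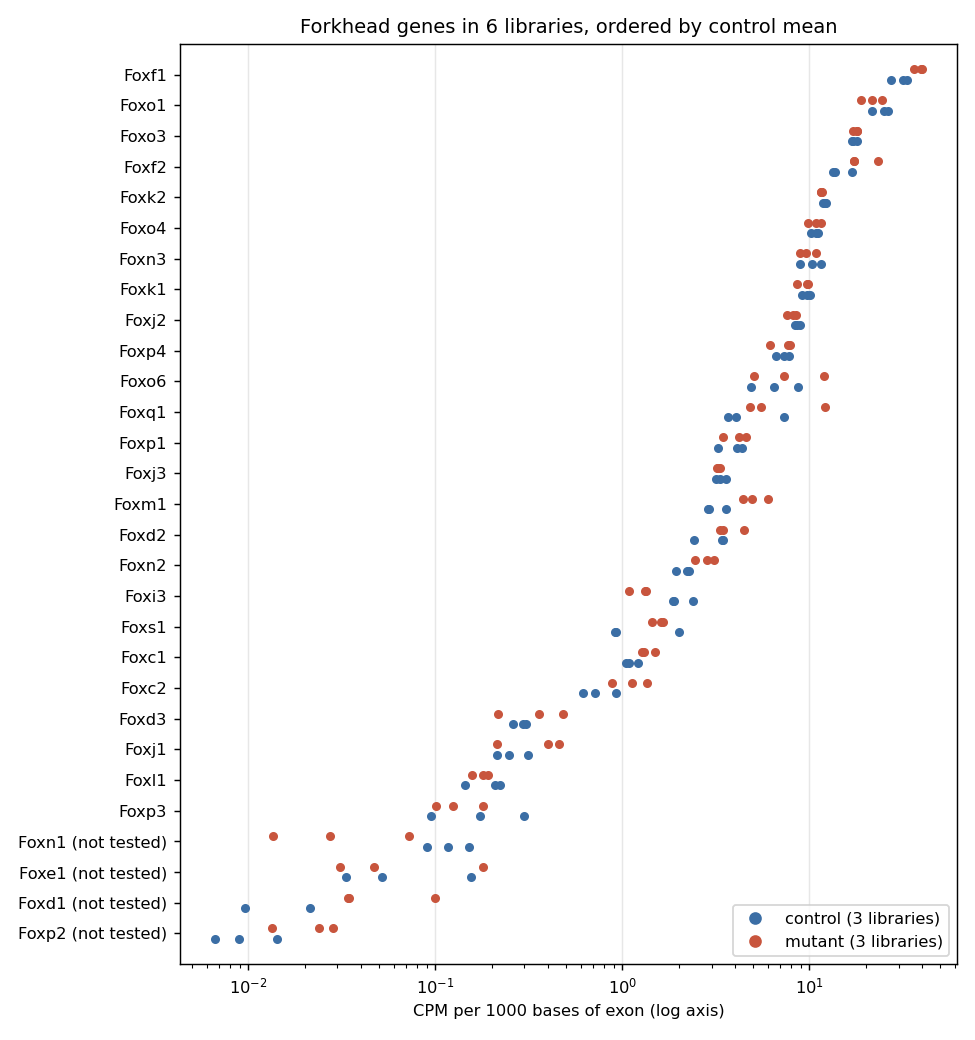
CPM per 1000 bases of exon on a log axis for all 29 Fox genes, with 1 point per library, controls in blue and mutants in red. Genes are ordered by control mean, from 30.8 for Foxf1 at the top down to Foxp2, and the single value of 0, Foxd1 in control replicate 3, is not drawn.

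Exon number and level were set side by side with no test, in a split chosen after the values were seen. In GENCODE M21 the longest coding transcript of 9 members has a single exon, among them Foxc1, Foxc2, Foxd2, Foxl1, Foxq1, Foxs1 and Foxd3, the 7 that were tested. Their median control level was 1.12 CPM per 1000 bases and the highest was 5.03 (Foxq1), while the 18 tested members with more exons had a median of 7.94. Foxf1 and Foxf2, which rank 1 and 4 in level, have 2 exons, while Foxp1 and Foxp2, which rank 13 and 29, have 19. The median log2 fold change was 0.29 in the single-exon members and 0.00 in the other tested members. Most members with a control mean of at least 10 CPM were measured closely: the SE of their log2 fold change had a median of 0.11 and ranged from 0.06 to 0.39 over 16 genes. In the 9 members under 10 CPM the median SE was 0.34.

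Foxm1, the cell cycle activator, lies on the plus strand of chromosome 6 of mm10 from 128362967 to 128376146. It stood at 20.5, 16.6 and 16.8 CPM in control replicates 2, 3 and 5 and at 25.4, 34.5 and 28.5 CPM in mutant replicates 3, 4 and 5. The lowest mutant library, replicate 3, was above the highest control. Foxm1 rose, with a log2 fold change of 0.71 and an SE of 0.14 (quasi-likelihood test of edgeR, adjusted p = 0.04996). This call sat at the threshold, and it was kept in 5 of 15 other fits, over which the log2 fold change ran from 0.58 to 0.91 and the adjusted p from 0.000734 to 0.179. Leaving out control replicate 2 (adjusted p = 0.0835), 3 (0.179) or 5 (0.158), or mutant replicate 4 (0.141) or 5 (0.118), ended it, as did RLE (0.0513) or upper-quartile factors (0.0534), no filter (0.0506) and limma-voom (0.0601).

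Of 30 genes that Foxm1 is known to work with or to activate, 3 rose, 0 fell and 27 did not pass, beside 0.659% called higher and 1.20% called lower among all genes. Of the 30, 29 had positive log2 fold changes, and the median was 0.64 beside 0.01 for all genes. The libraries did not overlap, with mutants higher, for 21 of the 30, as for 10.6% of all genes. At an unadjusted p under 0.05, 22 were higher and 0 lower, where 15.0% of all genes passed in either direction, DESeq2 called 19 higher and 0 lower, and limma-voom called 2 higher and 0 lower. Each of the 3 risers is a regulator of mitotic entry or of the centrosome. Ccnb1, the cyclin that drives entry into mitosis, went from 4.72, 5.38 and 4.52 CPM to 8.73, 9.46 and 9.13 (log2 fold change 0.90, SE 0.13, adjusted p = 0.0227). Cdc25b, a phosphatase that activates the mitotic kinase, went from 17.0 ± 0.574 to 24.0 ± 1.34 CPM (SD, n = 3, log2 fold change 0.50, edgeR adjusted p = 0.0382). Nek2, a centrosomal kinase, went from 3.65 ± 0.312 to 7.12 ± 1.21 CPM (0.96, adjusted p = 0.0413).

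The nearest to the threshold among the other genes of this list were Birc5, a subunit of the chromosomal passenger complex (log2 fold change 0.65, edgeR adjusted p = 0.0634), the cyclin gene Ccna2 (0.66, adjusted p = 0.0669) and Cks1b, which encodes a partner of cyclin-dependent kinases (0.63, adjusted p = 0.0713). The MuvB subunit gene Lin9 (4.19 to 5.40 CPM in controls, 4.75 to 6.64 in mutants) and Mybl2, the B-Myb gene that acts before Foxm1 (4.21 to 5.89 and 5.06 to 6.50 CPM), are named outside the rule for named genes, after their values were seen. Both overlapped between groups and did not pass (log2 fold change 0.25 and 0.24, adjusted p = 0.592 and 0.596). Without each of the 3 controls, mutant replicate 4 or mutant replicate 5, none of the 30 was called, and without mutant replicate 3, 11 were. The summed erythroid and myeloid markers were also higher in the mutants, though their order among libraries was not that of Foxm1 throughout. By gene, 0 of 7 tested erythroid markers and 1 of 10 myeloid markers (Cd68, edgeR adjusted p = 0.04982) were called higher. None was called lower, and among all genes 0.659% were called higher and 1.20% lower. The summed level of 11 erythroid markers was 1459 to 1986 CPM in controls, 2414 CPM in mutant replicate 3 and 5542 and 3912 CPM in mutant replicates 4 and 5, the libraries where Foxm1 was highest, and no listed marker was at 0 in every library. Among controls the erythroid sum was 1835, 1986 and 1459 CPM in replicates 2, 3 and 5, while Foxm1 was highest in replicate 2 and lowest in replicate 3. The summed level of 10 macrophage and other myeloid markers was 252 to 323 CPM in controls and 354 to 452 CPM in mutants. It was highest in mutant replicate 5, and Foxm1 in mutant replicate 4. The part of these cells in the Foxm1 values was not tested.

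**Figure D3:**
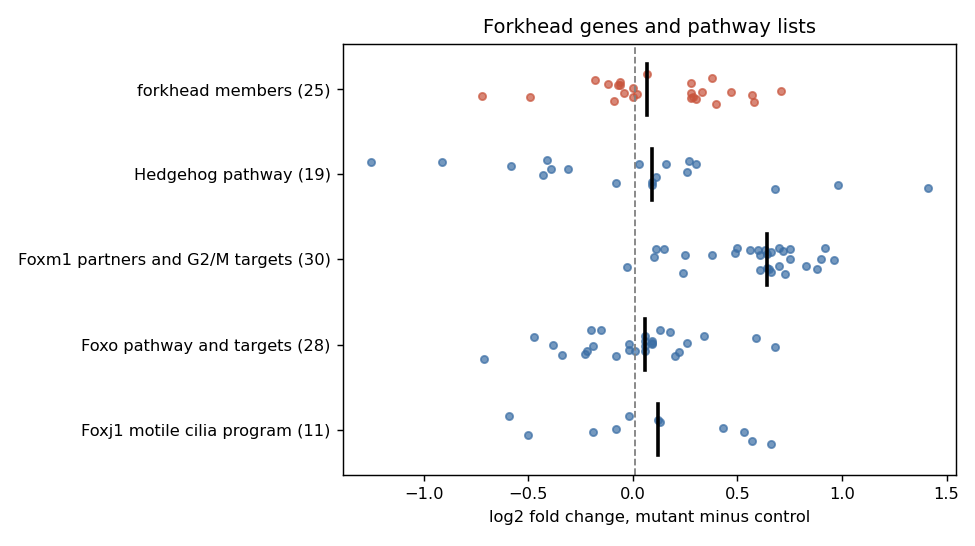
Log2 fold changes, mutant minus control, of the tested Fox genes (red) and of 4 pathway lists (blue), with 1 point per gene, a black bar at each median and a dashed line at the median of all tested genes (0.01). The Foxm1 list sits to the right with a median of 0.64, and the Fox genes as a group have a median of 0.07.

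Among the Hedgehog-linked members, the Foxf pair was abundant and none passed the test. Foxf1 lies on chromosome 8 from 121084386 to 121088144. It stood at 80.3, 76.4 and 66.4 CPM in controls and at 87.8, 96.9 and 95.4 CPM in mutant replicates 3, 4 and 5, so that each mutant was above each control. Its log2 fold change was 0.33 (SE 0.09, edgeR adjusted p = 0.125). Foxf1 passed with DESeq2 (adjusted p = 0.0458), and over all 15 alternatives the adjusted p ran from 0.0458 to 0.399. Foxf2, on chromosome 13 from 31625816 to 31631403, stood at 32.3, 31.7 and 39.8 CPM in controls and at 41.1, 55.2 and 40.8 CPM in mutants. The groups did not overlap, but control replicate 5 and mutant replicate 5 were 39.8 and 40.8. Its log2 fold change was 0.40 (SE 0.14, adjusted p = 0.236), and it passed with scaling to library totals alone (adjusted p = 0.0444, range over the alternatives 0.0444 to 0.742), a scaling that moved the median of all genes from 0.01 to 0.21.

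Foxd2, a mesenchymal gene of the face and kidney, stood at 8.95, 6.27 and 8.82 CPM in controls and at 8.66, 8.98 and 11.6 CPM in mutants, and the groups overlapped (log2 fold change 0.28, SE 0.18, edgeR adjusted p = 0.531). Foxl1, known from the mesenchyme beneath gut epithelium, had only 8 to 12 counts in every library and lay at 0.389 to 0.599 CPM in controls beside 0.425 to 0.521 CPM in mutants (fold change -0.12 on the log2 scale, adjusted p = 0.915, SE 0.34). Foxd1, known from the stroma of the kidney and from facial mesenchyme, was too low to be tested. It had 1, 0 and 2 counts in control replicates 2, 3 and 5 and 13, 4 and 4 counts in mutant replicates 3, 4 and 5, and the 0 allows up to 0.140 CPM in control replicate 3 (3 counts, counting error only). With no filter on low counts its adjusted p was 0.311.

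**Figure D4:**
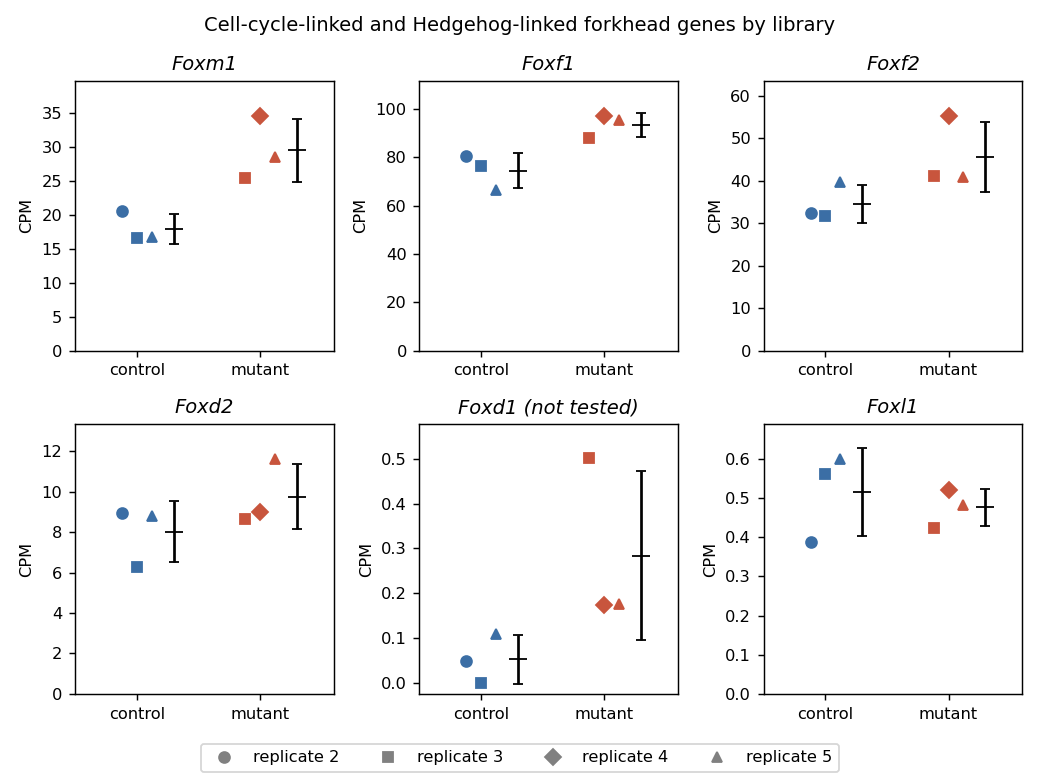
CPM of Foxm1, Foxf1, Foxf2, Foxd2, Foxd1 and Foxl1 in each library, with controls in blue, mutants in red, a marker shape for each replicate number and black bars for the mean and SD of each group. All mutants were above all controls for Foxm1, Foxf1, Foxf2 and Foxd1, the last with at most 13 counts in a library, and the groups overlapped for Foxd2 and Foxl1.

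These values stood beside a Hedgehog pathway in which 2 of 19 tested genes rose, 2 fell and 15 did not pass (median log2 fold change 0.09, 0.01 over all genes). Among all genes, 0.659% were called higher and 1.20% lower. At an unadjusted p under 0.05, 5 of the 19 were higher and 6 lower, where 15.0% of all genes passed in either direction. Groups did not overlap for 5 genes with mutants higher and 5 with mutants lower, as for 10.6% and 10.8% of all genes. Gli1, the effector and target, fell (controls 76.7 to 98.0 CPM, mutants 32.7 to 39.8 CPM, a change of -1.25 on the log2 scale, edgeR adjusted p = 0.00753). Only the mutants carried Gli1-CreER, and the labels do not say whether that allele disrupts Gli1. Its part in the Gli1 values was not tested. The risers were the co-receptor gene Gas1 (0.68, adjusted p = 0.0443) and Scube2, whose product helps release the ligand (1.41, adjusted p = 0.0465). The nearest of the rest were the ciliary regulator Kif7 (-0.58, adjusted p = 0.0807), Gli2 (-0.39, adjusted p = 0.135) and the co-receptor gene Boc (0.27, adjusted p = 0.219). Neither riser was called when any 1 library was left out. Gli1 was not called once control replicate 2 was left out (adjusted p = 0.0506), a fit in which 0 genes of the list were called lower. With control replicate 5, or either of mutant replicates 4 and 5, left out, 1 gene of the list was called lower.

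The Foxf2 and Foxd2 genes each share their start region with a noncoding transcript on the other strand. RefSeq promoter windows on GRCm38.p6 were matched for 16 of the 29 members, in 19 windows. Foxm1, Foxf1 and Foxl1 had no window. The 250 bases before the start are shown for Foxf2 and Foxd2, 5′ to 3′ on the strand of the gene. Each GC box (GGGCGG, searched on both strands) is in capitals. Foxd1 also had a window, which is not shown. The Foxf2 window is chr13:31625566-31625815 on the plus strand and the Foxd2 window is chr4:114908899-114909148 on the minus strand.
Foxf2: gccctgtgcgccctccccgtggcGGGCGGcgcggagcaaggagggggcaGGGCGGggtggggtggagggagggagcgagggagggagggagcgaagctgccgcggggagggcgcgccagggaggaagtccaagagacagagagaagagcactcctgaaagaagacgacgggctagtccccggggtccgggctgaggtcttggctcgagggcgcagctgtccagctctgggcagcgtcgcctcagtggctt
Foxd2: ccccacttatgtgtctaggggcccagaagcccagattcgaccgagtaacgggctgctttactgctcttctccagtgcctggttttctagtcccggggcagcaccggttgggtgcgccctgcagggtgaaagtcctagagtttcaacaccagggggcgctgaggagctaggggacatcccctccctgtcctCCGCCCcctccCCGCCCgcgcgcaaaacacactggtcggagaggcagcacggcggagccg
Each window held 2 GC boxes, and their GC content was 71.6% for Foxf2 and 64.4% for Foxd2, beside a median of 52.4% over all 32851 windows of this length. A GC box was present in 14 of the 19 member windows, or 73.7%, and in 32.7% of all windows. The core letters of the Gli binding site (GACCACC, both strands) were in 0 of the 19 member windows and in 2.34% of all windows. This says only that these letters are not in these windows, which do not cover Foxf1 or Foxl1. At that share, few would be met in 19 windows.

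The table lists 9 transcripts that start within 5000 bases of the start of a member on the other strand, and those beside Foxm1 and the Hedgehog-linked members are given first. The start of Rhno1, a DNA damage checkpoint gene, lies 56 bases from that of Foxm1 on the other strand. Rhno1 stood at 17.3, 16.4 and 15.7 CPM in controls and at 14.8, 17.2 and 17.0 CPM in mutants (a change of -0.01 on the log2 scale, SE 0.10, edgeR adjusted p = 0.972). Fendrr, a long noncoding RNA whose start lies 1276 bases from that of Foxf1, stood at 34.3, 24.3 and 23.1 CPM in controls and at 21.9, 26.5 and 30.9 CPM in mutants (-0.05, SE 0.18, adjusted p = 0.936). For 1700018A04Rik, whose start lies 24 bases from that of Foxf2, the log2 fold change was 0.34 (SE 0.24, adjusted p = 0.579), beside 0.40 for Foxf2. Mutant replicate 4 held the highest value of both. For Foxd2os, 384 bases from Foxd2, it was 0.23 (SE 0.29, adjusted p = 0.778), beside 0.28 for Foxd2, and mutant replicate 5 held the highest value of both and control replicate 3 the lowest. Of the rest, Ppp1r3f, which overlaps Foxp3, was lower in all mutants without passing (-0.57, SE 0.21, adjusted p = 0.256). Frg2f1 beside Foxj3 (-0.28, adjusted p = 0.615) and Gm26826 beside Foxj2 (-0.24, adjusted p = 0.841) overlapped between groups, and Gm12688 beside Foxd3 and Gm20402 beside Foxo1 were too low to be tested. The differences within a pair were not tested. Whether counting used strand is not stated in the labels, and reads where such transcripts overlap may not be separated.

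**Figure D5:**
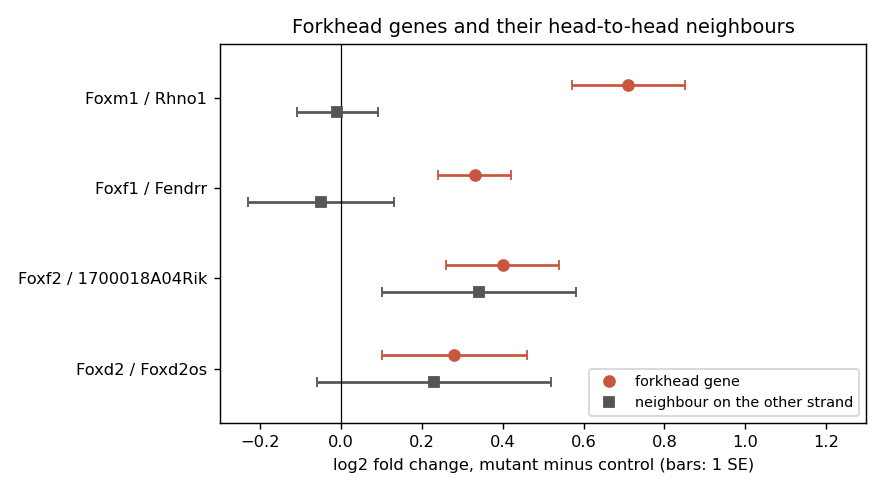
Log2 fold change, mutant minus control, with bars of 1 SE, of 4 Fox genes (red circles) and of the transcript that starts nearby on the other strand (grey squares). Foxm1 and Foxf1 stood at 0.71 and 0.33 and their neighbours Rhno1 and Fendrr at -0.01 and -0.05, while Foxf2 (0.40) and Foxd2 (0.28) stood beside 0.34 and 0.23.

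Members also lie together in the genome. Foxq1, Foxf2 and Foxc1 sit within 256 kb of chromosome 13, and Foxf1, Foxc2 and Foxl1 within 46.3 kb of chromosome 8. Foxc1, a gene of neural crest, eye and vessel development, stood at 6.32, 6.13 and 7.13 CPM in controls and at 8.73, 7.42 and 7.64 CPM in mutants. All mutants were above all controls, with a log2 fold change of 0.28 (SE 0.13, edgeR adjusted p = 0.371). Foxc2, known from lymphatic vessels and mesenchyme, stood at 1.95, 2.53 and 1.69 CPM in controls and at 2.40, 3.08 and 3.69 CPM in mutants, where 1 control lay within the mutant range (0.57, SE 0.25, adjusted p = 0.341). Endothelial markers, 12 of 12 listed, summed to 343 to 407 CPM in controls and 397 to 434 CPM in mutants, and their part in the Foxc values was not tested. The gene model Gm20388 spans Foxf1, Foxc2 and Foxl1 on the same strand (54.5 to 68.6 CPM over the 6 libraries, adjusted p = 0.601), so their reads may have been shared out by estimation, though the counts of the 3 Fox genes were whole in every library.

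Foxq1, a gene of hair and epithelial cells, and Foxo6 differed more between replicates than between groups. Foxq1 stood at 19.6, 35.6 and 17.8 CPM in control replicates 2, 3 and 5 and at 59.2, 26.8 and 23.3 CPM in mutant replicates 3, 4 and 5. Both libraries numbered 3 were the highest of their group, and the highest library was 2.0 times the lowest in controls and 2.54 times in mutants. The log2 fold change was 0.58 (SE 0.39, edgeR adjusted p = 0.554), and without mutant replicate 3 it was 0.04. Foxo6, the Foxo gene best known from the brain, had the same order of replicates, with 16.9, 22.6 and 12.7 CPM in controls and 31.3, 19.1 and 13.2 CPM in mutants. Its log2 fold change was 0.28 (SE 0.32, adjusted p = 0.746), and -0.11 without mutant replicate 3.

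Epithelial genes also varied between these libraries. Epcam, an epithelial adhesion gene chosen after its values were seen, stood at 13.0, 25.0 and 14.0 CPM in controls and at 30.2, 20.5 and 13.7 CPM in mutants. The 8 genes of the dental epithelium list that encode no enamel protein or enamel protease summed to 2264, 2821 and 2884 CPM in controls and to 2839, 2368 and 1687 CPM in mutants. Epcam was highest in replicate 3 of each group, as Foxq1 and Foxo6 were, while the sum was highest in control replicate 5, where Foxq1 and Foxo6 were lowest among controls. The part of epithelium in the Foxq1 and Foxo6 values was not tested.

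Foxi3, a gene of early tooth and hair placode epithelium, had the lowest log2 fold change of the 25 tested members. It stood at 2.43, 3.04 and 2.39 CPM in controls and at 1.39, 1.69 and 1.71 CPM in mutants, from 36 to 65 counts a library. Each mutant was below each control, but the gene did not pass (log2 fold change -0.72, SE 0.22, edgeR adjusted p = 0.164). The whole dental epithelium list, with 15 of 15 genes listed, summed to 181153 to 280929 CPM in controls and 70276 to 117144 CPM in mutants, most of it from enamel genes. Of these 15 genes, 0 rose, 2 fell (Amelx and Mmp20) and 13 did not pass. Among all genes, 0.659% were called higher and 1.20% lower. The log2 fold change was negative for 10 of the 15 and positive for 5, with Odam (0.93) and Amtn (0.79) the highest. The part of epithelium in the Foxi3 values was not tested.

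Foxo1, Foxo3 and Foxo4, abundant in this tissue, differed little between the groups. Foxo1 stood at 187, 230 and 218 CPM in controls and at 212, 187 and 163 CPM in mutants (a change of -0.18 on the log2 scale, SE 0.12, edgeR adjusted p = 0.554). Foxo3 was the steadiest of them, at 130, 137 and 129 CPM in controls and 131, 136 and 136 CPM in mutants (0.02, SE 0.07, adjusted p = 0.909). Foxo4, on the X chromosome, lay between 34.4 and 40.5 CPM in all libraries (adjusted p = 0.991). Of 28 genes of the Foxo pathway and its targets, 0 were called in either direction, with a median of 0.06. Among all genes, 0.659% were called higher and 1.20% lower, with a median of 0.01. At an unadjusted p under 0.05, 0 were higher and 6 were lower, where 15.0% of all genes passed in either direction, DESeq2 called 0 higher and 1 lower, and limma-voom called 0. The nearest to the threshold were Cdkn1a, an inhibitor of cyclin-dependent kinases (controls 242 to 276 CPM, mutants 171 to 221 CPM, change of -0.38 with adjusted p = 0.131), the stress gene Gadd45a (-0.71, adjusted p = 0.181) and Txnrd1, a thioredoxin reductase gene (-0.19, adjusted p = 0.216). Without mutant replicate 3, 1 gene of this list was called lower. A p that misses the threshold does not show that values were equal.

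The broadly expressed Foxk, Foxn, Foxj and Foxp genes made up most of the rest. Foxn2 stood at 16.4, 16.8 and 14.2 CPM in controls and at 18.1, 22.9 and 20.9 CPM in mutants, with all mutants higher (log2 fold change 0.38, SE 0.12, edgeR adjusted p = 0.171). Foxk2 stood at 62.4, 64.5 and 64.1 CPM in controls and at 60.3, 61.2 and 61.4 CPM in mutants. All mutants were lower, by a small amount (-0.06, SE 0.06, adjusted p = 0.715). Its paralog Foxk1 (-0.04, SE 0.08), Foxj2 (-0.09, SE 0.07), Foxj3 (-0.06, SE 0.08), Foxn3 (-0.07, SE 0.12), Foxp1 (0.07, SE 0.14) and Foxp4 (0.00, SE 0.11) had overlapping groups and adjusted p of 0.639 to 0.995. The signs of all of these but Foxn2 changed in at least 1 alternative fit, Foxk2 and Foxj2 only with library totals.

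Several members were scarce. Foxd3, a neural crest and Schwann cell precursor gene, had 13 to 26 counts a library (0.609 to 0.708 CPM in controls, 0.502 to 1.13 in mutants, edgeR adjusted p = 0.768), while 10 Schwann cell markers summed to 54.9 to 57.7 CPM in controls and 66.0 to 69.4 CPM in mutants. Foxj1, the regulator of motile cilia, had 12 to 31 counts (adjusted p = 0.626). Of the 24 genes of a motile cilia list, 18 were listed and 11 had enough counts to be tested, so the rest gave no result. Of these 11, 0 were called, beside 0.659% called higher and 1.20% called lower among all genes. At an unadjusted p under 0.05, 0 passed, where 15.0% of all genes did, and DESeq2 and limma-voom called 0. At those shares, few would be met in 11 genes. The nearest were the axonemal dynein genes Dnah11 (-0.50, adjusted p = 0.352) and Dnah9 (-0.59, adjusted p = 0.363) and Cfap43 (0.66, adjusted p = 0.401). Foxp3, the regulator of regulatory T cells, lay at 0.435 to 1.36 CPM in controls and 0.464 to 0.824 CPM in mutants (adjusted p = 0.688). Its gene overlaps 4 other listed genes. The 9 lymphocyte markers listed summed to 19.6 to 24.9 CPM in controls and 22.7 to 31.7 CPM in mutants. Among them Cd3e had 0 to 0.163 CPM, Lck 0.889 to 1.36 CPM, and Cd4, which myeloid cells can also express, 3.43 to 5.20 CPM in controls and 5.21 to 7.51 CPM in mutants. Ptprc gave the largest part of the sum, with 9.03 to 12.3 CPM in controls and 10.5 to 16.5 CPM in mutants. The part of myeloid cells in this sum was not tested. Foxs1, known from pericytes and sensory neurons, stood at 1.22, 2.62 and 1.20 CPM in controls and at 2.16, 2.13 and 1.89 CPM in mutants (0.29, SE 0.34, adjusted p = 0.755). Besides Foxd1, the untested members were Foxe1, Foxn1 and Foxp2, with 1 to 13 counts in any library. Foxn1, known from thymic and hair epithelium, had 6, 8 and 9 counts in controls and 6, 1 and 2 in mutants, and with no filter its adjusted p was 0.345.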

How the data were processed

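RNA of the apical region of mouse lower first molars was sequenced as single-end reads of 75 cycles, per the labels' protocols. The submitters' processing notes name STAR 2.6.1d, Partek and mm10. The deposited table holds the authors' estimated counts per gene, which need not be whole, and each of its 22287 genes summed to at least 10. The authors also deposited a table of normalized signal, used in 1 alternative.

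The members, lists and tests were chosen with earlier results of these data known. Estimated counts were rounded and tested with edgeR 4.0.16 (R 4.3.3): TMM factors, filterByExpr and the quasi-likelihood test, 3 mutant against 3 control libraries, with Benjamini-Hochberg adjustment over 17305 genes and calls at an adjusted p under 0.05. CPM used the TMM-scaled library sizes. Named genes were those in the rule for the members, every called member, the 10 members with the smallest p, the 10 with the highest control level per length and, in each list, the called genes and the 3 next by p. Alternatives were scaling by RLE factors, by upper-quartile factors or to library totals, other filters, DESeq2 1.42.0, limma-voom (limma 3.58.1), the normalized table, a threshold of 0.10, a replicate block and leaving out each library. Exon lengths and positions came from GENCODE M21 and promoters from RefSeq. A called gene of the Hedgehog list is counted but not reported by name here.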

Additional observations from a re-analysis of the deposited data

How the results depend on the processing

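Of the 25 tested Fox genes, 13 kept the sign of their log2 fold change in every alternative run for them (15, or 14 for Foxj1 and Foxp3, which had no value under the filter of 1 CPM) and 12 reversed in at least 1; 3 members were called in any. The number of Fox genes called higher, 1 in the fit reported, was 0 with RLE factors, upper-quartile factors, no filter or limma-voom, 2 with library totals or DESeq2, and 0 to 1 when 1 library was left out. The Hedgehog list had 2 genes called higher; limma-voom called 1 and leaving out 1 library 0 in each case, while its 2 lower calls became 0 to 2. The Foxm1 list had 3 higher, against 15 with library totals, 19 with DESeq2, 14 at a threshold of 0.10 and 0 to 11 with 1 library left out. The Foxo list had 0 lower, against 1 with DESeq2 and 0 to 1 with 1 library left out. The cause was not tested.

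The labels do not say whether replicate numbers shared by the groups pair the libraries. Deviations from the group means correlated at 0.267 for the replicates numbered 3 and -0.144 for those numbered 5. Libraries of unlike number ran from -0.447 (control 2 with mutant 3) to 0.3 (control 2 with mutant 5), so these values do not settle it. With the replicate block the calls were 0 Fox genes, 0 higher and 1 lower in the Hedgehog list and 0 in the Foxm1 list, the adjusted p of Foxm1 was 0.147 (edgeR), and all genes gave 19 higher and 71 lower calls, against 114 and 208. Signs reversed under the block for Foxd3 (-0.01), Foxo4 (-0.09), Foxp1 (-0.15) and Foxp4 (-0.11). Control replicate 2 and mutant replicate 4 share their number with no other library, so under the block they added nothing to the group difference. That difference rested on the libraries numbered 3 and 5 alone, so the block is not an adjustment of all the libraries.

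Scaling to library totals moved the median of all genes from 0.01 to 0.21, gave 411 higher and 109 lower calls (79% higher against 35.4%), made 23 of 25 Fox genes positive, with a median of 0.27, and reversed Foxj2 (0.11), Foxj3 (0.15), Foxk1 (0.17), Foxk2 (0.14), Foxl1 (0.09), Foxn3 (0.14), Foxo1 (0.03) and Txnrd1 (0.02). RLE factors put Foxp4 at -0.0001. DESeq2 gave 364 higher and 510 lower calls over all genes, and leaving out 1 library 1 to 105 higher and 10 to 138 lower. With 1 library left out, reversals ran over Foxj3 -0.09 to 0.00016, Foxk1 -0.08 to 0.02, Foxl1 -0.28 to 0.0045, Foxn3 -0.16 to 0.04, Foxo4 -0.05 to 0.06, Foxo6 -0.11 to 0.53, Foxp1 -0.05 to 0.17 and Foxp4 -0.06 to 0.10. The 9 members under 10 CPM had a median SE of 0.34, and the source of that spread was not tested.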
